A study of Bos grunniens with 18 samples.

Results

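The scavenger receptor genes *CD36*, *SCARB1*, *SCARB2*, *MSR1*, *OLR1*, *CD163* and *CD68* were followed in whole blood of female yaks at 3 reproductive stages. The 7 genes were picked by name from the 20607 genes of the deposited table, where each name belonged to a single row. *CD36* entered because the study itself names it among its differentially expressed genes, so its levels are given here as a description without a test. The other 6 were added as scavenger receptors when earlier results of these data were known, and their adjusted p-values, taken over all genes tested, describe these libraries and are not independent evidence.

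The blood came from 6 adult cows aged 4 to 8 years, sampled outside the breeding cycle (anestrus, Y-A), in heat (estrus, Y-E) and while pregnant (Y-P). Each stage had 6 libraries numbered 1 to 6. Estrus was synchronised in the herd with a progesterone pessary, the prostaglandin analog cloprostenol and GnRH, followed by timed insemination, so that Y-E is an induced estrus. Whole blood was mixed with TRIzol LS and not sorted, and the libraries were made from poly(A) RNA. A library held between 30247267 and 48401076 counts. Y-E replicate 6 stood apart. Its hemoglobin complex genes took 8.36% of the counts against at most 0.713% in the other Y-E libraries, and the study's supplementary tables do not list it. Stage differences are therefore given over all 18 libraries, with the larger changes on leaving out that library beside them. Of the 7 names of the whole blood list, 6 were in the table and passed the filter on low counts, namely *PTPRC* (leukocytes), *CSF3R* (neutrophils), *CD79A* (B cells), *CD14* (monocytes), *ITGA2B* (platelets) and *ALAS2* (reticulocytes), and *CD3E* was not in the table by name.

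Scavenger receptors are cell-surface or lysosomal proteins that bind modified lipoproteins, apoptotic cells and microbial products. The class B members *CD36*, *SCARB1* and *SCARB2* span the membrane at both ends. *CD36* takes up long-chain fatty acids and oxidized LDL and binds thrombospondin, *SCARB1* (SR-BI) exchanges cholesterol with HDL, and *SCARB2* (LIMP-2) is a membrane protein of the lysosome. *MSR1* is the class A receptor of macrophages, *OLR1* (LOX-1) is a C-type lectin for oxidized LDL, *CD163* binds hemoglobin-haptoglobin complexes on monocytes and macrophages, and *CD68* is a glycoprotein of the endosomes and lysosomes of phagocytes. In blood *CD163* and *MSR1* are known mainly from monocytes, and *CD36* from monocytes, platelets and red cell precursors.

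Per length, *CD68* was the most abundant with a mean of 119 FPKM over the 18 libraries (the deposited unit, in which a gene's fragments are divided by its length and by the library's mapped reads). *SCARB1* followed at 37.2 FPKM, *CD163* at 30.6, *OLR1* at 24.8, *SCARB2* at 22.2 and *MSR1* at 9.22 FPKM. *CD36* lay far under the others at 0.199 FPKM, with 586 counts in all 18 libraries together. All 7 passed edgeR's filter on low counts, which kept 14508 genes; *CD36* passed it through its Y-A and Y-P libraries alone.

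*CD36* (*ENSBGRG00000019844*, chromosome 4, 87430224 to 87549470, plus strand) overlapped no other gene of the table. In Y-A it had 26 to 111 counts per library with a median of 48.5. In Y-E 4 of the 6 libraries had 0 counts, and replicates 4 and 5 had 6 and 9. In Y-P the counts ran from 9 to 84 with a median of 27.5. Every Y-E library thus lay under every Y-A library, while Y-P overlapped both stages, its lowest library holding as many counts as the highest of Y-E. A count of 0 allows up to 3 counts (upper 95% limit), which is 0.0646 to 0.0946 CPM in these 4 libraries.

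On the CPM scale (each library's counts divided by its TMM-adjusted size and brought to a common total), the mean level of *CD36* was 1.80 ± 1.02 for Y-A libraries, 0.0721 ± 0.116 for Y-E and 0.831 ± 0.604 for Y-P (SD, n = 6 each). The Y-A mean was 25.0 times that of Y-E, and the Y-P mean was 11.5 times that of Y-E. These ratios rest on 15 counts in Y-E. They were 54.2 and 25.0 without Y-E replicate 5, 33.9 and 15.6 without Y-E replicate 4, and 20.8 and 9.61 without Y-E replicate 6. The fitted log2 fold change was −4.57 in Y-E vs. Y-A (SE 0.91), −1.11 in Y-P vs. Y-A (SE 0.76) and 3.45 in Y-P vs. Y-E (SE 0.89). Between same-numbered libraries *CD36* was lower in pregnancy than in anestrus in 5 of 6 pairs, and lower in pregnancy than in estrus in 0 of 6. It was lower in estrus than in anestrus in 6 of 6, which follows from the separation of these stages under any pairing. Complete separation of Y-E below Y-A was seen for 0.172% of the genes tested, and nothing is read from it here, as *CD36* was chosen for this comparison.

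**Figure D1:**
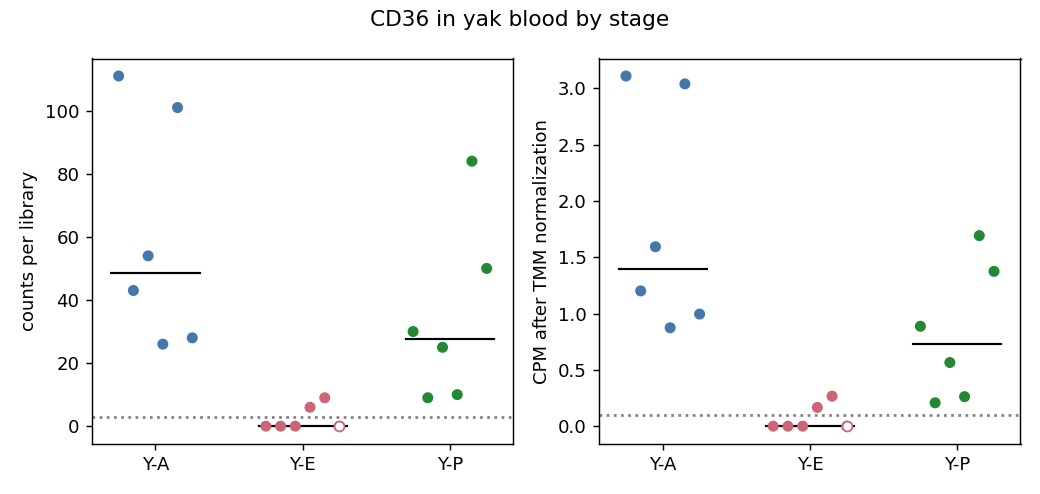
*CD36* in each of the 18 libraries, as counts (left) and as CPM after TMM normalization (right), by stage. The black lines are stage medians, the open circle is Y-E replicate 6, and the dotted line marks 3 counts or the CPM they amount to in the shallowest library. In Y-E 4 libraries lie at 0, and none reaches the lowest Y-A library.

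Marker sums of the blood cells that can carry *CD36* were read beside it. The 7 platelet genes in the table summed to 286 to 374 CPM in anestrus, 241 to 397 in estrus and 155 to 210 in pregnancy. Of the platelet list *GP9*, *GP6*, *PF4* and *PPBP* were not in the table by name, and *GP1BB* had at most 1 count. The 8 monocyte genes summed to 947 to 1678, 833 to 1917 and 640 to 1373 CPM in the same order. The 6 reticulocyte genes reached 440 to 10633 CPM in Y-A, 92.6 to 171 in Y-E replicates 1 to 5, 4513 in Y-E replicate 6 and 39.0 to 122 in Y-P. Over all 18 libraries 0 of these 6 genes fell in Y-E vs. Y-A (edgeR), where 0.0207% of all genes tested did. At an unadjusted p under 0.05 there were 2, against 6.2% of all genes, and DESeq2 and limma called 1 each. With edgeR and without Y-E replicate 6, 3 of the 6 fell and 6 had an unadjusted p under 0.05. With the replicate number as a block these counts were 2 and 6. The shares of all genes given here are from the fit of 18 libraries without the block. In that fit the list median was −1.70 on the log2 scale, beside −4.57 for *CD36*. Without Y-E replicate 6, which had 0 *CD36* counts, these values were −4.37 and −4.29, beside −0.01 over all genes. In Y-P vs. Y-E their signs were opposite. The list median there was −4.62 (−1.46 without Y-E replicate 6), beside 3.45 for *CD36* over all 18 libraries. The part of these markers in the levels of *CD36* was not tested. In unsorted blood, fewer cells of a type and less RNA per cell cannot be told apart.

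After the stage means were subtracted, the 5 genes whose log2 CPM followed *CD36* most closely over the 18 libraries were *RAB14* (Pearson r = 0.84), the processed pseudogene *ENSBGRG00000008326* (0.80), *RNF217* (0.77), *OLFM4* (0.76) and *WDFY1* (0.76). These are the highest of 14507 values and are given as a description only. The libraries share cows and depth, and 4 of the *CD36* values are zeros. With the stage differences left in, the same genes correlated with *CD36* at 0.32, 0.18, −0.21, 0.03 and 0.11, so that none of them shared the stage pattern of *CD36*. Of the other scavenger receptors, *OLR1* was closest to *CD36* within stages, at 0.55.

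Among the 6 other genes, 0 passed an adjusted p of 0.05 in Y-E vs. Y-A (edgeR), where 0.0207% of all genes tested did and 0.0138% also reached a log2 fold change of 1 in size. At an unadjusted p under 0.05 there was 1, *CD68*, against 6.2% of all genes, and DESeq2 and limma called 0. With the replicate number as a block there were 3, *OLR1*, *MSR1* and *CD68*, and still 0 passed the adjusted threshold. The 6.2% is from the fit without the block. In Y-P vs. Y-A 1 of the 6, *OLR1*, passed, against 5.83% of all genes (3.61% lower), and in the comparison of pregnancy with estrus 3 of the 6, *OLR1*, *SCARB1* and *CD68*, against 14.4% (8.68% lower). DESeq2 called 2 of the 6 against anestrus and 3 against estrus, and limma on log2(FPKM + 1) called 1 and 2. All of these were lower in pregnancy. With the study's additional threshold of a log2 fold change of at least 1 in size, *OLR1* remained in both pregnancy comparisons (edgeR), where 1.43% and 2.67% of all genes passed. The median log2 fold change of the 6 genes was 0.05 in Y-E vs. Y-A and −0.41 and −0.56 in the comparisons of pregnancy with anestrus and with estrus, beside −0.01, 0.03 and 0.04 over all genes tested. With library size as the only scaling, the median over all genes moved to 0.19 and 0.18 in the pregnancy comparisons.

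**Figure D2:**
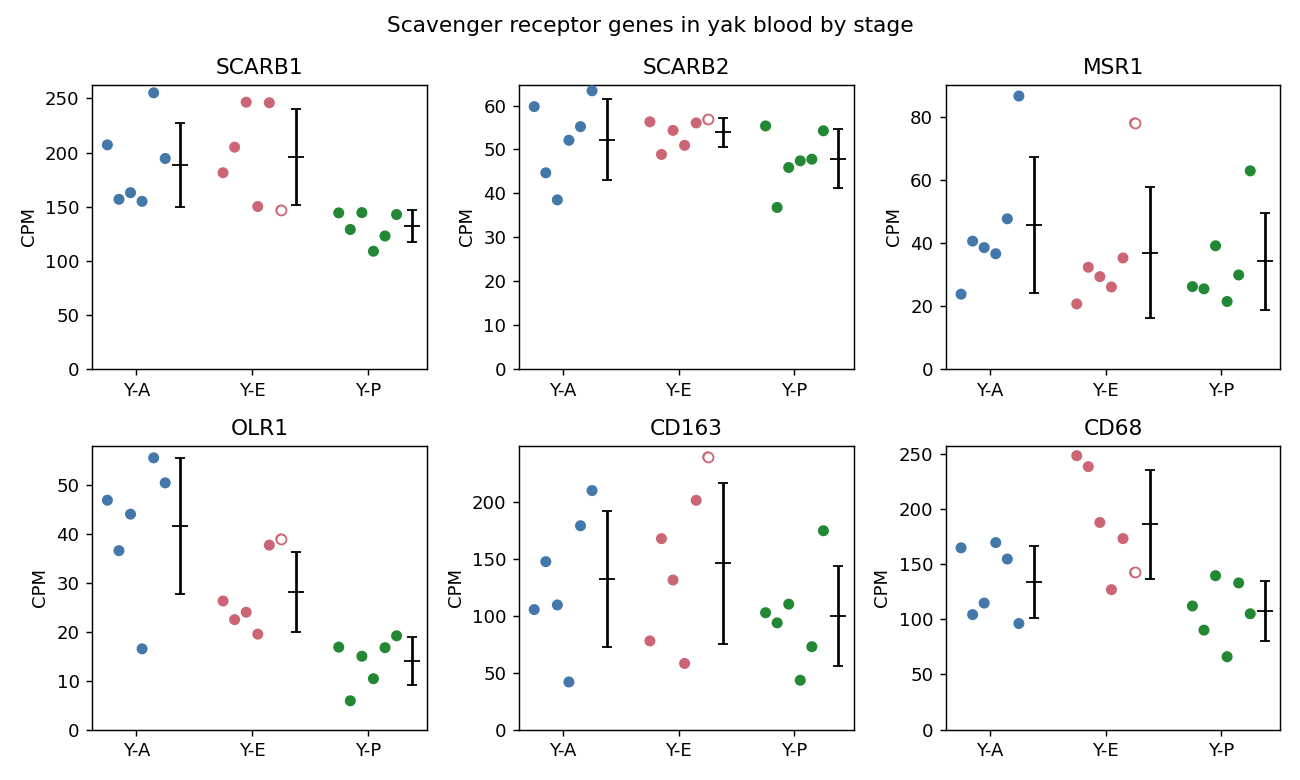
CPM of the 6 other scavenger receptor genes in each library by stage, with the stage mean and SD in black and Y-E replicate 6 as an open circle. Each axis starts at 0. On this scale every Y-P library lies under every Y-A and Y-E library for *SCARB1*, and under every Y-E library for *OLR1*.

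*OLR1* (*ENSBGRG00000020167*, chromosome 5, 2128314 to 2140938, minus strand) was, of these 6 genes, the one with the largest fall in pregnancy. Its level was 16.5 to 55.5 CPM in anestrus (median 45.4), 19.5 to 38.9 in estrus (median 25.1) and 5.90 to 19.2 in pregnancy (median 15.9). The stages were thus ordered from Y-A through Y-E to Y-P. On this scale all Y-P libraries lay under all Y-E libraries, as for 3.84% of all genes tested. Y-A overlapped Y-P only through Y-A replicate 4, its lowest library. In deposited FPKM, which has no TMM scaling, the Y-P libraries (5.39 to 19.9) overlapped those of Y-E (18.4 to 35.4). The gene fell by 1.57 on the log2 scale in Y-P vs. Y-A (SE 0.29, adjusted p = 0.00621, edgeR), and it did so between all 6 same-numbered pairs. In Y-P vs. Y-E the 6 of 6 lower pairs follow from the separation of these stages, and the fall was 1.01 (SE 0.28, adjusted p = 0.0234). That value sat at the fold threshold, and without Y-E replicate 6 it was 0.89 (log2 fold change −0.89, adjusted p = 0.0494). With limma on log2(FPKM + 0.1) the adjusted p was 0.0600. It rose to 0.0601 without Y-E replicate 5 and to 0.0525 without Y-P replicate 4. Estrus and anestrus, neighbours in this order, differed by −0.56 (SE 0.28, adjusted p = 0.824) and by −0.68 without Y-E replicate 6 (adjusted p = 0.521). With the replicate number as a block this difference was −0.54 (SE 0.18, unadjusted p = 0.0110, adjusted p = 0.382, edgeR).

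Beside the fall of *OLR1* stood lower sums of several marker lists in pregnancy. The 7 neutrophil genes summed to 3710 to 9335 CPM in anestrus, 4752 to 12559 in estrus and 2686 to 5977 in pregnancy. Of these genes 6 were lower in Y-P vs. Y-E at an adjusted p under 0.05, as were 8.68% of all genes tested. In Y-P vs. Y-A 1 of the 7 was lower with edgeR, where 3.61% of all genes fell, and 2 passed with DESeq2 and 0 with limma. Of the 8 monocyte genes, 0 passed in either pregnancy comparison with edgeR and limma and 1 in each with DESeq2, with 4 and 3 at an unadjusted p under 0.05, where 22.7% and 29.3% of all genes lay. Without Y-E replicate 6, 1 monocyte gene fell in Y-P vs. Y-E. The 5 T cell genes went the other way, from 871 to 1077 CPM in Y-A and Y-E to 1109 to 1737 in Y-P. Of the 5, 2 rose in Y-P vs. Y-A, where 5.83% of all genes passed in either direction. The part of these markers in the results for *OLR1*, *SCARB1* and *CD68* was not tested. Within stages, *OLR1* followed *HNMT*, a histamine-degrading enzyme (r = 0.90), the small RNA gene *U6* (0.89) and the cholesterol-esterifying enzyme *SOAT1* (0.88), over the same 18 libraries.

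*SCARB1* (*ENSBGRG00000012214*, chromosome 16, 56102972 to 56205492, plus strand) was also lowest in pregnancy, with a narrow spread. Anestrus libraries held 155 to 255 CPM (median 179), estrus libraries 147 to 247 (median 193) and pregnancy libraries 109 to 144 (median 136). On this scale no Y-P library overlapped either other stage, a separation shared by 2.32% of all genes against Y-A and 3.84% against Y-E. In deposited FPKM, which has no TMM scaling, the Y-P libraries (28.0 to 37.1) overlapped those of Y-A (33.3 to 51.3) and Y-E (32.0 to 50.7). *SCARB1* fell by 0.57 on the log2 scale in Y-P vs. Y-E (SE 0.15, adjusted p = 0.0170, edgeR), whereas limma on FPKM gave an adjusted p of 0.0650 or 0.0735, depending on the pseudocount. The difference in Y-P vs. Y-A was −0.51 (SE 0.15), with an adjusted p of 0.0501 over all 18 libraries and 0.0424 without Y-E replicate 6. The adjusted p was 0.0199 with DESeq2 and 0.0485 with the hemoglobin complex genes left out, and 0.141 or 0.152 with limma. With library size as the only scaling the difference was −0.34 (adjusted p = 0.117). Y-E and Y-A did not differ beyond their spread (log2 fold change 0.06, SE 0.15, adjusted p = 0.999). The genes nearest to *SCARB1* within stages were *TFE3* (r = 0.89), a lysosomal transcription factor, *BCL6* (0.88), a transcriptional repressor, and *RASGRP4* (0.88).

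*CD68* (*ENSBGRG00000015552*, chromosome 19, 40775956 to 40777670, minus strand) had its highest levels in estrus. Its CPM were 96.1 to 169 at anestrus (median 135), 127 to 248 at estrus (median 180) and 66.1 to 139 at pregnancy (median 108). The 2 highest libraries of all were Y-E replicates 1 and 2, and neighbouring stages overlapped. *CD68* fell by 0.79 in Y-P vs. Y-E (log2 scale, SE 0.20, adjusted p = 0.0144, edgeR), in 6 of 6 same-numbered pairs. Its adjusted p stayed under 0.05 in all 18 fits that left out a library, from 0.00762 to 0.0402. In Y-E vs. Y-A it was 0.47 higher (SE 0.20, unadjusted p = 0.0298, adjusted p = 0.701), and in Y-P vs. Y-A the difference was −0.32 (SE 0.20, adjusted p = 0.374). Within stages *CD68* was nearest to *ENSBGRG00000019941* (r = 0.87), *GOLGA7* (0.87) and *SUPT6H* (0.87).

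**Figure D3:**
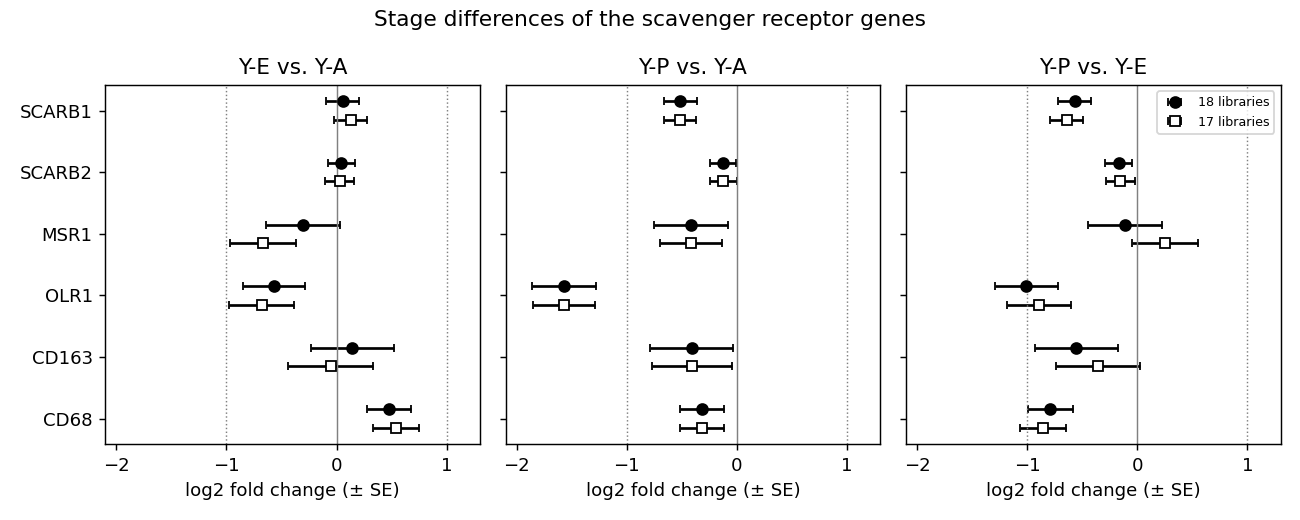
Log2 fold change with its SE for the 6 genes in the 3 stage comparisons (edgeR), over all 18 libraries (filled circles) and without Y-E replicate 6 (open squares). The dotted lines mark the fold threshold of 1. *OLR1* lies at −1.57 in Y-P vs. Y-A, and *MSR1* is the gene whose values move most when Y-E replicate 6 is left out.

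*SCARB2* (*ENSBGRG00000014740*, chromosome 6, 29679181 to 29762379, plus strand) differed little between stages. It had 38.5 to 63.4 CPM in anestrus (median 53.6), 48.9 to 56.8 in estrus (median 55.2) and 36.8 to 55.4 in pregnancy (median 47.6), and the stages overlapped almost entirely. The log2 fold changes were 0.04 in Y-E vs. Y-A, −0.13 in Y-P vs. Y-A and −0.17 in Y-P vs. Y-E, each with an SE of 0.12 (adjusted p = 0.999, 0.585 and 0.385, edgeR). The sign in Y-P vs. Y-A depended on the scaling, and with library size only it was 0.06. An unnamed gene on the opposite strand, *ENSBGRG00000014820*, lies within *SCARB2* and had at most 12 counts in a library.

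*CD163* (*ENSBGRG00000008424*, chromosome 5, 93316 to 129411, minus strand) and *MSR1* (*ENSBGRG00000009456*, chromosome 28, 34595927 to 34667414, minus strand) varied with the replicate number and overlapped between stages. *CD163* ran from 41.9 to 210 CPM in anestrus (median 129), 58.1 to 239 in estrus (median 150) and 43.4 to 175 in pregnancy (median 98.2). For *MSR1* the range was 23.7 to 86.6 CPM in anestrus (median 39.5), 20.6 to 78.0 in estrus (median 30.8) and 21.4 to 62.8 in pregnancy (median 28.0). The 3 stages overlapped broadly for both genes. Neither passed in any stage comparison. For *CD163* the log2 fold changes were 0.14 for estrus against anestrus, −0.41 for pregnancy against anestrus and −0.55 for pregnancy against estrus (SE 0.38 each, adjusted p = 0.999, 0.561 and 0.361, edgeR). For *MSR1* they were −0.30, −0.42 and −0.11 (SE 0.34 each, adjusted p = 0.999, 0.493 and 0.863). Between same-numbered libraries *MSR1* was lower in estrus than in anestrus in 6 of 6 pairs and *CD163* in 1 of 6. With the number as a block, the difference of *MSR1* there was −0.34 (SE 0.13, unadjusted p = 0.0199, adjusted p = 0.467, edgeR). The block gave *MSR1* −0.40 in Y-P vs. Y-A (SE 0.13, unadjusted p = 0.00814, adjusted p = 0.0694) and −0.06 in Y-P vs. Y-E (adjusted p = 0.794). For *CD163* it gave −0.34 (adjusted p = 0.245) and −0.49 (unadjusted p = 0.0156, adjusted p = 0.0715), with an SE of 0.18 each. The SEs without the block include the spread between numbers. Without Y-E replicate 6 and without the block, *MSR1* was at −0.67 in Y-E vs. Y-A and 0.25 in Y-P vs. Y-E (adjusted p = 0.540 and 0.637). *CD163* was at −0.05 and −0.35 there (adjusted p = 0.995 and 0.599).

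The level of *CD163* kept to the replicate number. Number 4 was the lowest library of its stage in all 3 stages, at 41.9, 58.1 and 43.4 CPM in Y-A, Y-E and Y-P. Number 6 was the highest in all 3, at 210, 239 and 175 CPM. *MSR1* was also highest in number 6 throughout, at 86.6, 78.0 and 62.8 CPM, while no other library exceeded 47.6 CPM. Of the variation of log2 CPM within stages, 91.3% lay between numbers for *MSR1* and 85.8% for *CD163*. The median over all 14508 genes tested was 43.4%, and 0.221% and 1.05% of them reached the values of *MSR1* and *CD163*. The share was 73.0% for *OLR1*, 70.3% for *SCARB2*, 50.2% for *CD36*, 46.5% for *SCARB1* and 36.8% for *CD68*. This pattern was noticed in the data and is given as a description.

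**Figure D4:**
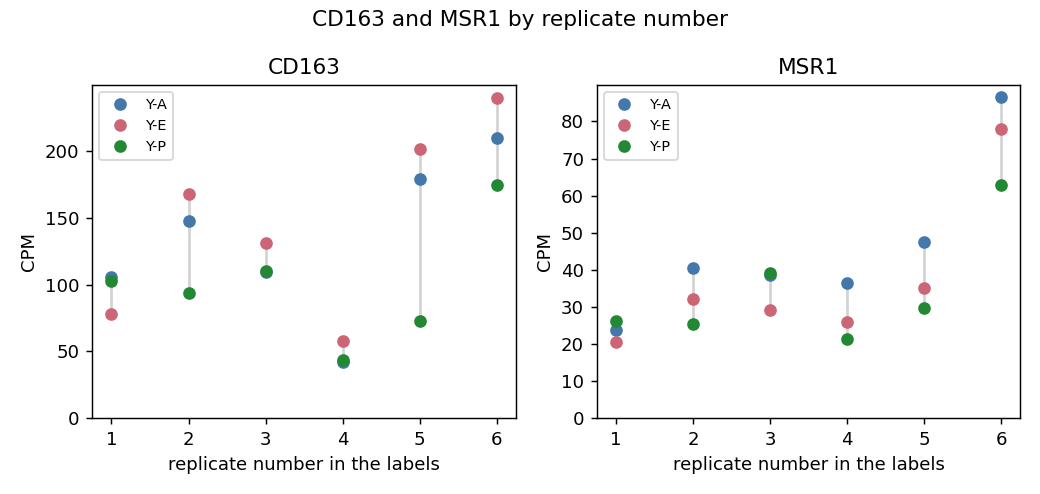
CPM of *CD163* (left) and *MSR1* (right) against the replicate number in the sample labels, 1 point for each stage, with a grey line from the lowest to the highest stage. Number 4 is lowest and number 6 highest for *CD163* in every stage, and number 6 stands above all other libraries for *MSR1*.

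The summed monocyte markers showed the same extremes. Number 4 had the lowest sum of its stage, at 947, 833 and 640 CPM in Y-A, Y-E and Y-P, and number 6 the highest, at 1678, 1917 and 1373 CPM, with 85.4% of the variation within stages between numbers. For the tissue macrophage list that share was 6.05%, and its 7 genes summed to 37.8 to 190 CPM in all libraries. The part of the monocyte markers in the levels of *CD163* and *MSR1* was not tested. The pairs of these genes that moved most closely within stages were *MSR1* with *CD163* (r = 0.71) and *OLR1* with *CD163* (r = 0.67), whereas *CD68* was near 0 with *CD163* (r = −0.03) and at −0.23 with *MSR1*. The genes nearest to *CD163* were *VNN1*, a pantetheinase (r = 0.87), *PKD2* (0.86) and the monocyte chemokine receptor *CCR2* (0.86). Those nearest to *MSR1* were the unnamed *ENSBGRG00000000024* (0.93), *ENSBGRG00000009057* (0.91) and *ENSBGRG00000022657* (0.89).

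*CD163* and *OLR1* lie on the same chromosome beside C-type lectin genes. The nearest gene of the table above *CD163* was *CLEC4E*, 76838 bases away, and the nearest below *OLR1* was *CLEC7A*, 24924 bases away. *CLEC7A*, the beta-glucan receptor dectin-1, had a log2 fold change of −0.74 in Y-P vs. Y-A (adjusted p = 0.0640, edgeR), in the direction of *OLR1*.

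Genes that act with these receptors were read from 6 lists drawn up from general knowledge. In Y-E vs. Y-A none of the lists had a gene at an adjusted p under 0.05 with edgeR, DESeq2 or limma, and at an unadjusted p under 0.05 there were 6 of the 20 fatty acid genes tested, 0 of the 8 lysosomal genes and 1 in each other list, against 6.2% of all genes. The counts in the pregnancy comparisons are to be read beside all genes tested, of which 5.83% passed against anestrus (3.61% lower) and 14.4% against estrus (8.68% lower).

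Of 20 further scavenger receptors, 17 were in the table and 12 were tested. *CD5*, a scavenger receptor of the cysteine-rich class carried by T cells, rose in Y-P vs. Y-A (log2 fold change 0.51, SE 0.12, adjusted p = 0.0198) and in Y-P vs. Y-E (0.43, SE 0.12, adjusted p = 0.0206). The median of the 5 T cell genes was 0.49 and 0.46 in these comparisons, and their part in the rise of *CD5* was not tested. *LRP1*, a large endocytic receptor for lipoproteins and heme-hemopexin, fell by 1.09 in Y-P vs. Y-E (log2 scale, SE 0.29, adjusted p = 0.0167), from 397 ± 163 to 186 ± 61.9 CPM (SD, n = 6 each). With edgeR the others did not pass, while DESeq2 called 4 of the 12 against anestrus and 2 against estrus, and limma 2 in each. *MARCO*, a class A receptor like *MSR1*, was at −2.20 in Y-P vs. Y-A with an adjusted p of 0.0806. *SCARA5*, *COLEC12*, *STAB2*, *MEGF10* and *SSC5D* had at most 15 counts in a library. The median of the list was −0.08 in Y-P vs. Y-A and −0.48 in Y-P vs. Y-E. *CD6* was the most abundant, with a mean of 71.6 FPKM.

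Of the ligands and partners of *CD36*, 13 of 19 were in the table and 11 tested. In Y-P vs. Y-E 3 of the 11 fell and 0 rose, where 8.68% of all genes fell. They were the signaling genes *VAV1* (log2 fold change −0.37, adjusted p = 0.0149), *SRC* (−1.03, adjusted p = 0.0398) and *SYK* (−0.36, adjusted p = 0.0466), and without Y-E replicate 6 there were 2. In Y-P vs. Y-A 0 passed with edgeR and 1 each with DESeq2 and limma, and 4 had an unadjusted p under 0.05. *APOA1* and *APOE*, which encode lipoprotein ligands, had at most 12 counts in a library. *SYK* had the highest mean level, 129 FPKM. The median was −0.23 in Y-P vs. Y-A and −0.37 in Y-P vs. Y-E.

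Fatty acid handling genes, 20 of 25 in the table and all 20 tested, gave 6 lower and 1 higher in Y-P vs. Y-E, where 14.4% of all genes passed. *RXRA*, the partner of the PPAR receptors, fell from 274 ± 64.8 to 120 ± 25.6 CPM (SD, n = 6 each; log2 fold change −1.19, SE 0.20, adjusted p = 0.00107). *DGAT2*, a triglyceride-forming enzyme and the most abundant of the list at 284 FPKM, fell from 859 ± 384 to 348 ± 77.8 CPM (−1.30, SE 0.28, adjusted p = 0.00473). *PPARD*, a fatty acid receptor, fell as well (−0.50, adjusted p = 0.0105). *HADHB* of mitochondrial beta-oxidation rose (0.50, SE 0.11, adjusted p = 0.00520). In Y-P vs. Y-A 0 passed with edgeR, 2 with DESeq2 and 2 with limma, and 4 had an unadjusted p under 0.05. The list's median was −0.08 in Y-P vs. Y-E.

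**Figure D5:**
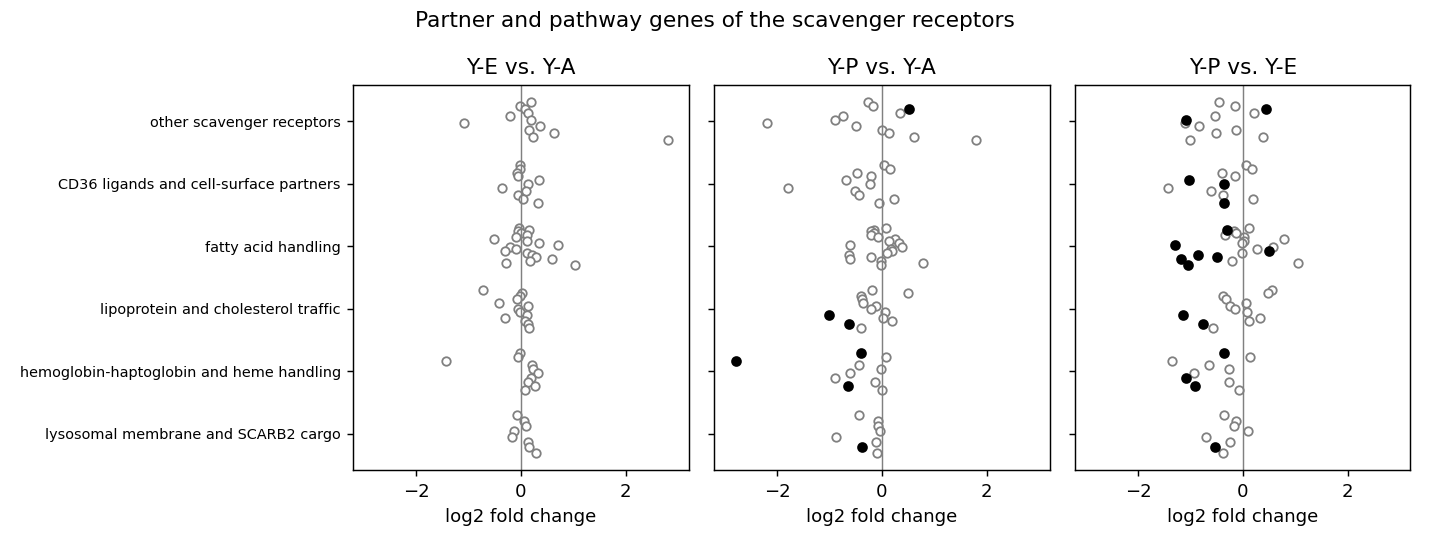
Log2 fold changes (edgeR, 18 libraries) of the tested genes of the 6 partner and pathway lists in the 3 stage comparisons. Each circle is a gene, filled where its adjusted p is under 0.05. No gene is filled in Y-E vs. Y-A, and of the 18 filled points in Y-P vs. Y-E 2, *CD5* and *HADHB*, lie above 0; *LRP1* stands in 2 lists.

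Of the lipoprotein and cholesterol genes, 13 of 17 were tested, and the same 2 fell in both pregnancy comparisons (3.61% and 8.68% of all genes fell). *NR1H3* (LXR alpha), a sterol-sensing receptor, was at −1.01 in Y-P vs. Y-A and −1.14 in Y-P vs. Y-E (SE 0.28 each, adjusted p = 0.0371 and 0.0106). *SOAT1* was at −0.63 and −0.77 (SE 0.18 each, adjusted p = 0.0445 and 0.00803). *ABCA1*, which loads cholesterol onto HDL, was not past the threshold (−0.18 and 0.55, adjusted p = 0.629 and 0.0698). *NPC2* was the most abundant at 178 FPKM. Of the hemoglobin, haptoglobin and heme genes, 10 of 14 were tested and 3 fell in each pregnancy comparison, beside the same shares of all genes, with 2 against anestrus when Y-E replicate 6 was left out. *SLC40A1* (ferroportin) fell in both (−0.65 and −0.92, SE 0.19 each, adjusted p = 0.0458 and 0.00342), and so did *ADAM17*, a protease that sheds *CD163* (−0.39 and −0.37, SE 0.11 each, adjusted p = 0.0434 and 0.0314). *BLVRB*, also abundant in red cells, fell in Y-P vs. Y-A (−2.78, SE 0.54, adjusted p = 0.00777), where 5 of the 6 reticulocyte genes fell too, and *LRP1* fell in Y-P vs. Y-E as above. *HMOX1*, the heme oxygenase, was at −0.44 and −0.64 (adjusted p = 0.278 and 0.0717).

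Of 14 lysosomal names 8 were in the table and all 8 were tested. *TFE3* fell in Y-P vs. Y-A (−0.38, SE 0.09, adjusted p = 0.0275) and in Y-P vs. Y-E (−0.54, SE 0.09, adjusted p = 0.00147), from 226 ± 28.0 CPM in Y-E to 156 ± 7.54 in Y-P (SD, n = 6 each). *CTSB*, a lysosomal protease, had the highest mean level at 260 FPKM and did not pass. The medians of these lists against estrus were −0.16 for lipoprotein, −0.51 for heme and −0.31 for lysosomal genes, beside 0.04 over all genes. All of these lists share the 18 libraries and, in the pregnancy comparisons, the Y-P libraries.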

How the data were processed

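The authors trimmed the reads with cutadapt 1.9, aligned them with HISAT2 2.2.1 to the *Bos grunniens* genome (Ensembl identifiers, v101) and estimated expression with StringTie 2.1.6, per the labels and methods. They deposited FPKM values, already scaled by exon length and mapped reads. They also deposited whole-number counts per gene, not normalized; the counting tool and its strand setting are not given in the sources used here, and the library kit marks strand. Positions of genes were taken from the deposited annotation columns.

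Counts were tested with edgeR 4.0.16 in R 4.3.3 (TMM, filterByExpr, quasi-likelihood fit of stage over all 18 libraries, two-sided, Benjamini-Hochberg over all genes tested). Calls used an adjusted p under 0.05, to which the study's fold threshold (log2 of 1 in size) was added where stated. SEs are the fold change divided by the root of the F statistic. CPM are after TMM. limma 3.58.1 on log2(FPKM + 1) or log2(FPKM + 0.1), for genes of mean FPKM of at least 0.3, and DESeq2 1.42.0 were alternatives, beside other scalings, filters and sample sets. limma's fold changes are on the log2(FPKM + pseudocount) scale. The scripts were tested on simulated data with 200 changed genes. Python 3.11.15, pandas 2.3.3, numpy 2.4.6 and matplotlib 3.10.9 were used.

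The 7 genes, the marker and partner lists and the rules were chosen with earlier results of these data known. Named genes are the 7, the genes nearest in pattern to each (log2 CPM with a prior count of 2), and from each partner list up to 4 genes with the smallest adjusted p under 0.05 plus the most abundant one; *ABCA1*, *HMOX1*, *MARCO*, *CLEC7A*, *APOA1*, *APOE* and genes at few counts were named after their values were seen. For Y-E vs. Y-A all 6 same-numbered pairs of libraries deviated together over all genes (correlation 0.110 to 0.515), and the study followed 6 cows, so these numbers were taken to pair the libraries there. With the number as a block, no call on the 6 genes tested changed in that comparison, while the genes passing both thresholds went from 2 to 11. In the Y-P comparisons only 4 of 6 pairs exceeded 0.1. The labels do not say that a number marks a cow; if libraries of a stage were technical repeats, p-values would measure that spread only. Intervals and floors cover counting error only, and no 2 libraries had identical counts.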

Additional observations from a re-analysis of the deposited data

Results flagged for a closer look

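Of the 21 combinations of a gene and a stage, 1 held a library that stood apart from the other 5 of its stage by Dixon's test at the 95% level, which chance does for about 1 in 20. It was *MSR1* in Y-E replicate 6, at 78.0 CPM against 20.6 to 35.2 CPM in the other Y-E libraries. The same number was also the highest for *MSR1* in Y-A and Y-P.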

How the results depend on the processing

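Over all genes, those past both thresholds numbered 2 in Y-E vs. Y-A, and 14 with DESeq2, 1 with limma on log2(FPKM + 0.1), and 2 to 18 when a library was left out, the most without Y-E replicate 6. In the pregnancy comparisons limma on log2(FPKM + 1) gave 136 against anestrus (208 with edgeR) and 151 against estrus (387). Leaving out a library gave 110 (without Y-P replicate 2) to 229, and 289 to 476. Of the 6 receptor genes tested, *OLR1* alone passed both thresholds against estrus; the count was 0 with library size only, without the hemoglobin complex genes, with both limma settings and with only the stages compared, and 0 to 1 when a library was left out (0 without Y-E replicate 5 or 6 or Y-P replicate 2 or 4).

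Differences near 0 changed sign. *SCARB2* in Y-P vs. Y-A was 0.056 with library size only and 0.082 and 0.085 with limma, and against estrus 0.010 and 0.0096 with limma. *MSR1* in Y-P vs. Y-E was 0.043 with library size only, 0.10 and 0.12 with limma, and −0.38 to 0.25 when a library was left out. In Y-E vs. Y-A leaving out a library gave −0.021 to 0.16 for *SCARB1*, −0.030 to 0.093 for *SCARB2* and −0.055 to 0.31 for *CD163*. The causes were not tested. *CD36* was under limma's filter and has no value there.

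Blocking on the replicate number raised the genes past both thresholds in Y-E vs. Y-A to 11, and to 34 if Y-E replicate 6 was dropped too, which was tried only after the data had been seen. In Y-P vs. Y-A the block gave *SCARB1* −0.50 (adjusted p = 0.0335); 4 of 6 libraries there correlated best with their own number. It changed no other call on the 6 genes tested. With the block 2 of the 8 monocyte genes fell in Y-P vs. Y-A and 3 in Y-P vs. Y-E.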

Other observations

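Other cell markers, read from lists drawn up from general knowledge, are given as summed CPM. The 4 eosinophil genes summed to 399 to 1328 CPM in Y-A, 734 to 1063 in Y-E and 439 to 1186 in Y-P, and 1 of them fell in Y-P vs. Y-E (edgeR). The 7 B cell genes summed to 664 to 2047, 567 to 1731 and 755 to 2209 CPM. The dendritic cell genes stayed between 27.3 and 58.8 CPM in all libraries, and 1 of 4 fell in Y-P vs. Y-E. The endothelial genes summed to at most 9.22 CPM, 1 of the 4 tested fell in each pregnancy comparison, and *CLDN5* and *ROBO4* had at most 5 counts in a library. Of the adipocyte list *ADIPOQ* and *LEP* were not in the table by name, and the other 2 genes summed to at most 1.93 CPM. The C1q chains *C1QA*, *C1QB* and *C1QC*, of the tissue macrophage list, had log2 fold changes of −1.37, −1.39 and −1.38 in Y-P vs. Y-A (adjusted p = 0.0339, 0.0469 and 0.0328, edgeR). Of that list 3 of 7 genes tested fell against anestrus and 4 against estrus, and of the platelet list 3 of 6 in each comparison. All marker counts here stand beside 3.61% of all genes tested that fell against anestrus and 8.68% against estrus.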
